A study of Homo sapiens with 8 samples.

Results

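Genes for the receptors of 5 neurotransmitters, GABA, glutamate, glycine, acetylcholine and serotonin, were followed in BE(2)-M17 cells, a human neuroblastoma line, with and without interferon-γ (IFN-γ). The members were taken by gene symbol alone, as every symbol in the table that names a GABA-A, GABA-B, glycine, ionotropic or metabotropic glutamate, nicotinic, muscarinic or serotonin receptor or subunit. This gave 90 of the 26372 genes in the table. Untreated cells gave 4 libraries, and cells kept for 24 h in 10 ng/ml IFN-γ the other 4. All 8 are labelled M17, with no other agent named, although SH-SY5Y, another neuroblastoma line, also appears in the protocol for cell growth. RNA was depleted of ribosomal RNA and sequenced, and the values are FPKM, fragments per kilobase of transcript, scaled by the fragments mapped, so levels can be compared between genes per length. Nothing in the labels places the libraries of a group in different cultures, and p-values therefore measure only their spread, which may be technical.

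Ionotropic receptors are ion channels built from several subunits, and which subunits are present sets the ion that passes and the drugs that bind. GABA-A and glycine receptors pass chloride, whereas AMPA, kainate, NMDA, nicotinic and 5-HT3 receptors pass cations. GABA-B, metabotropic glutamate, muscarinic and most serotonin receptors are instead coupled to G proteins. Neuroblastoma arises from the sympathetic nervous system, whose ganglion cells receive acetylcholine through nicotinic receptors that contain the α3 and β4 subunits.

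The noradrenergic markers HAND2, GATA2, GATA3, ISL1, TH, DBH and MYCN were present in every library. The sum of the 10 markers was 3243 to 3314 FPKM untreated and 3207 to 3463 with IFN-γ. Of 6 blood and immune markers 3 were listed at 0 in all 8 libraries, and their sum was 0.191 to 0.556 FPKM untreated and 0.437 to 0.583 with IFN-γ. The 7 glial markers summed to 2.52 to 2.79 and 2.83 to 3.27 FPKM. The 6 fibroblast markers summed to 166 to 176 and 184 to 239 FPKM, most of it DCN, with COL1A2 at 0 in all untreated libraries. Of these markers PHOX2A, CHGA, LUM and PDGFRB were higher with IFN-γ and COL1A1 lower (limma adjusted p of 0.0217 or less). Their part in the receptor values was not tested. The depth, estimated from the steps between low FPKM values, was about 14.0 to 20.0 M (mega) fragments per library.

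27 of the 90 receptor genes had a mean of at least 0.5 FPKM over the 8 libraries and were tested. The other 63 were not: 18 had a mean of 0.1 to 0.5 FPKM, 31 were above 0 with a mean under 0.1, and 14 were listed at 0 in all 8 libraries. Of the 27, 6 were higher with IFN-γ and 7 lower at a limma adjusted p of 0.05, where p was adjusted over all 13598 genes tested. These 13 are 48.1% of the tested members, beside 22.3% of all genes tested (13.3% higher and 9.05% lower). GRM4 was tested only because of its level in the IFN-γ group. The log2 change, taken on log2(FPKM + 0.1), had a median of -0.08 over the 27 and of -0.0047 over all genes tested. In 16 of the 27 the 4 values of a group lay entirely on 1 side of the other group's, beside 28.2% of all genes. In 17 of the 27, IFN-γ replicate 4 was the lowest of its group and in 4 the highest, beside 37.3% and 36.9% of all genes. This library thus lay low more often among the members than over all genes. Without that library 6 members were higher and 8 lower, and the lower count was 4 without untreated replicate 2 or IFN-γ replicate 3.

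These directions are on the deposited scale. SNORD3A, a short nucleolar RNA, held 5.97 to 57.9% of the summed FPKM in untreated libraries and 0% with IFN-γ. Rescaling each library to TPM over all genes moved the median change of all genes to 0.79, and 12 members were then higher and 0 lower. In TPM without short RNA genes the median was -0.10, with 4 members higher and 9 lower. Relative to the shifted median, each of the 13 called genes kept its sign under quantile normalization and under both TPM scalings. For TPM this was all but fixed in advance and is no separate support. TPM divides a library by the same number for every gene, which shifts all log2 changes alike but for the pseudocount. GAPDH, a housekeeping gene, was at 1741 ± 14.7 FPKM untreated and 1840 ± 150 with IFN-γ (adjusted p = 0.569).

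**Figure D1:**
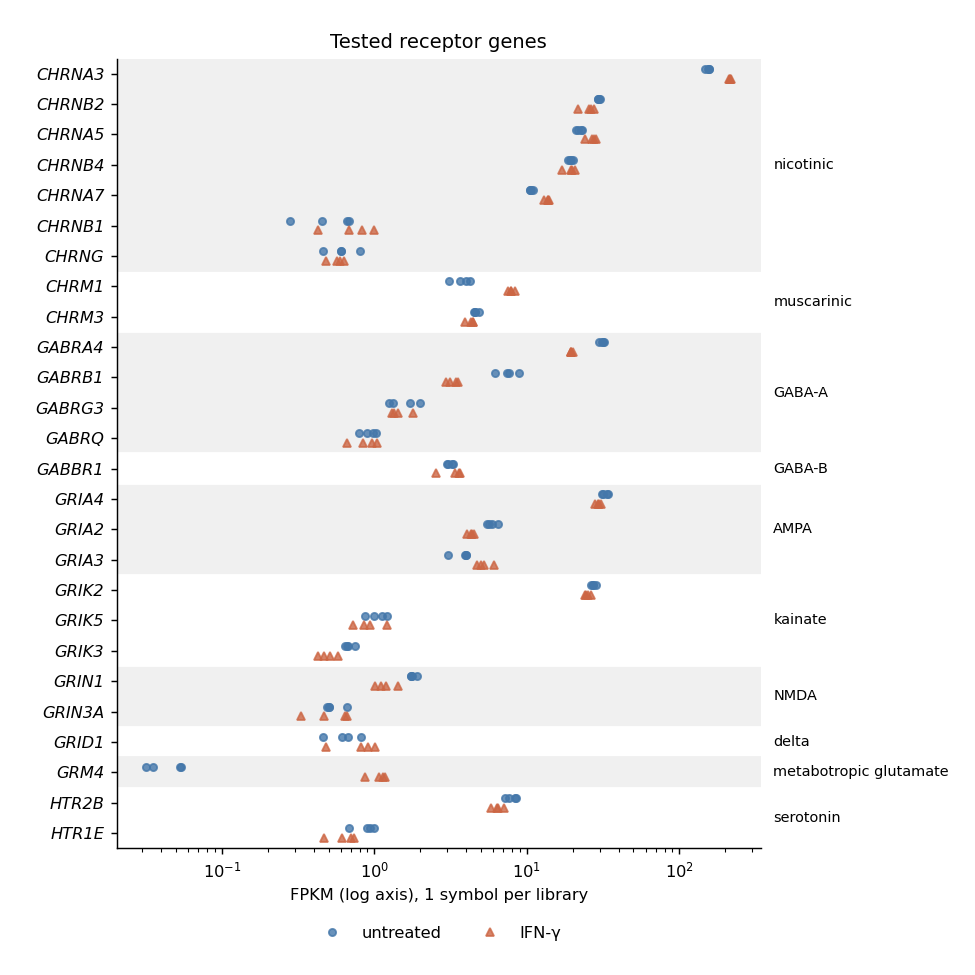
FPKM of 26 of the 27 tested receptor genes, on a log axis, with 1 symbol per library (circles untreated, triangles IFN-γ, 4 each) and the receptor class at the right. CHRNA3 lies highest, at 147 FPKM or more in every library, and GRM4 shows the widest gap between the groups.

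Nicotinic receptors had the highest level of any class and 3 of their 7 tested subunits rose. The summed FPKM of the 16 nicotinic genes was 236 ± 3.82 untreated and 302 ± 7.86 with IFN-γ (SD, n = 4). CHRNA3, the α3 subunit of ganglionic receptors, was at 156, 153, 155 and 147 FPKM untreated and at 219, 212, 214 and 214 with IFN-γ. The groups did not overlap, and CHRNA3 rose by 0.49 on the log2 scale (SE 0.04, limma adjusted p = 4.3e-06). In a bulk sample a change in the share of cells that express a gene and a change in RNA per cell cannot be told apart. CHRNA5, an accessory subunit that joins α3 and β4, was at 21.7, 21.1, 22.5 and 22.8 FPKM untreated and 28.4, 27.4, 26.6 and 24.0 with IFN-γ. All 4 treated libraries lay above the untreated ones, with a smaller change of 0.27 (SE 0.06, adjusted p = 0.00612) that did not pass after rescaling to TPM without short RNA genes (adjusted p = 0.169). CHRNB4, the β4 subunit, was at 19.4 ± 0.672 and 19.2 ± 1.60 FPKM and did not pass (log2 change -0.01, SE 0.06, adjusted p = 0.910).

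CHRNA5, CHRNA3 and CHRNB4 lie side by side on chromosome 15 of GRCh38, at 78565520 to 78595269 on the forward strand and at 78593052 to 78621295 and 78624119 to 78727754 on the reverse strand. The ratio of CHRNA3 to CHRNB4 within a library was 7.91 ± 0.348 untreated and 11.25 ± 1.01 with IFN-γ, and that of CHRNA3 to CHRNA5 was 6.95 ± 0.374 and 8.11 ± 0.571. These and the other ratios below were chosen after the values were seen and are given as a description, with no test. A ratio within a library does not depend on how libraries are scaled. CHRNA3 and CHRNA5 share 198 exonic bases on opposite strands. CHRNA5 also shares 832 exonic bases with AC027228.2 on the opposite strand. Fragments from these stretches cannot be assigned without strand.

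CHRNA7, whose α7 subunits can form a channel on their own, was at 10.5, 11.0, 10.5 and 10.6 FPKM untreated and at 14.0, 13.9, 13.8 and 12.9 with IFN-γ. Every treated library was higher, by 0.36 (SE 0.04, adjusted p = 2.3e-04). CHRFAM7A, a partial copy of CHRNA7 with near-identical sequence, was at 1.22 ± 0.203 and 1.38 ± 0.181 FPKM and did not pass (adjusted p = 0.468), and the division of fragments between the 2 genes is uncertain. CHRNB2, the β2 subunit of the main brain receptor, went the other way. It was at 30.2, 29.7, 29.3 and 29.4 FPKM untreated and at 27.4, 26.4, 25.6 and 21.7 with IFN-γ, with no overlap (-0.23, SE 0.07, adjusted p = 0.0290). This call was lost without any 1 of the 4 untreated libraries or IFN-γ replicate 3 (adjusted p = 0.0549 to 0.0776). CHRNB2 shares 321 exonic bases with AL592078.1 on the opposite strand, with the same limit on assigning fragments. CHRNA4, the usual partner of β2 in brain, was at no more than 0.0316 FPKM in any library. The muscle subunit genes CHRNB1 and CHRNG were low, at 0.518 ± 0.191 and 0.733 ± 0.244 FPKM and at 0.617 ± 0.141 and 0.568 ± 0.0646, and neither passed (adjusted p = 0.346 and 0.791).

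**Figure D2:**
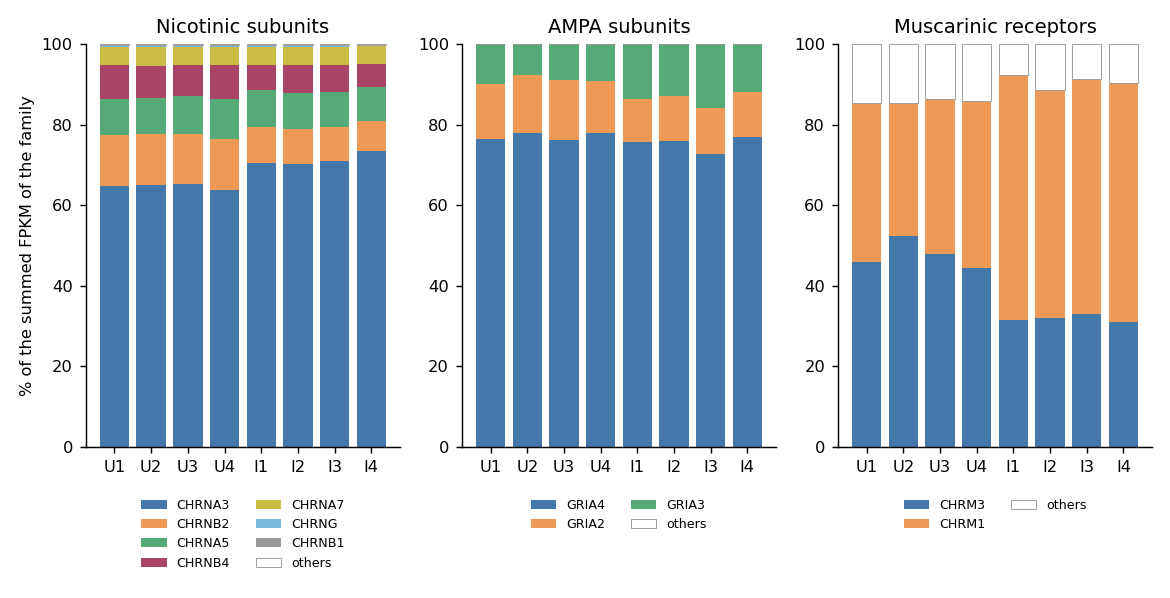
Share of each gene in the summed FPKM of its family, in percent, for each library (U1 to U4 untreated, I1 to I4 IFN-γ, numbered by replicate); bars start at 0 and white is the rest of the family. CHRNA3 makes up 64.7% of nicotinic FPKM untreated and 71.3% with IFN-γ, and CHRM1 38.2% and 58.8% of muscarinic FPKM.

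Of the muscarinic receptors, which answer acetylcholine through G proteins, CHRM1 rose and CHRM3 did not pass. CHRM1, the M1 receptor coupled to Gq, was at 3.96, 3.08, 3.63 and 4.27 FPKM untreated and at 8.37, 7.83, 7.88 and 7.51 with IFN-γ. The lowest treated library was well above the highest untreated one, and the log2 change was 1.07 (SE 0.10, adjusted p = 1.9e-05), a ratio of means of 2.12. CHRM3, also coupled to Gq, was at 4.57, 4.87, 4.50 and 4.58 FPKM untreated and 4.33, 4.41, 4.45 and 3.93 with IFN-γ. Its 4 treated values were all lower, but the change of -0.11 (SE 0.07) did not pass (adjusted p = 0.266). CHRM3 was the more abundant of the pair in all untreated libraries and CHRM1 in all treated ones, with a CHRM1 to CHRM3 ratio of 0.809 ± 0.128 and 1.85 ± 0.0864. CHRM2, CHRM4 and CHRM5 had means under 0.5 FPKM and overlapping groups, between 0.182 and 0.701 FPKM over all libraries.

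CHRM1 lies on chromosome 11 at 62908679 to 62921807, reverse strand, and shares 313 exonic bases with an antisense gene, AP000438.1. Fragments from that stretch cannot be assigned without strand. Promoter sequences from RefSeq (GRCh38.p14, 250 bases before to 50 after an annotated start) were found for 68 of the 90 members, in 95 windows. They were searched on both strands for 2 elements that interferon-activated factors bind, a GAS (TTCNNNGAA) and an ISRE core (GAAA, any 2 bases, GAAA). A GAS match was in 7.66% of all 35116 windows and in 3 of the 95, those of GABRA6, GABRB1 and GRIN2B. An ISRE match was in 3.57% of all windows and in 3 of the 95, those of CHRM1, CHRM2 and GLRA2. Of the 20 tested members with a window, GABRB1 alone held the first and CHRM1 alone the second. The CHRM1 window is shown because among the tested members this gene had the largest rise but for GRM4, whose 2 windows held neither match. It spans chr11:62921314-62921613 on the reverse strand, with the ISRE match, which reads on the other strand, in capitals:
CHRM1: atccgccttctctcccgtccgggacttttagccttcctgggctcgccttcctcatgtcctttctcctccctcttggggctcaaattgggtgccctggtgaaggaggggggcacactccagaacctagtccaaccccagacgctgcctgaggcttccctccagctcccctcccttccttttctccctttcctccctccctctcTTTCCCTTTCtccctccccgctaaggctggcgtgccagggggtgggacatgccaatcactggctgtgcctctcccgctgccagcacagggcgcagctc
The match begins 48 bases before the start. It describes these letters only, and binding was not measured.

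Of the GABA-A receptor genes 2 of 5 tested subunits fell and none rose on the deposited scale, while in TPM over all genes GABRA4 had a change of 0.14 and GABRB1 of -0.39. The summed FPKM of the 19 genes was 81.5 ± 1.90 untreated and 63.5 ± 0.977 with IFN-γ. GABRB1, the β1 subunit, was at 6.19, 7.45, 7.65 and 8.82 FPKM untreated and at 3.54, 2.96, 3.41 and 3.11 with IFN-γ. The lowest untreated value exceeded the highest treated one by a wide margin, and the log2 change was -1.18 (SE 0.11, adjusted p = 2.2e-05). GABRA4, the α4 subunit found in receptors outside the synapse, was at 29.7, 31.5, 31.9 and 31.3 FPKM untreated and 19.6, 19.4, 19.5 and 20.1 with IFN-γ. The groups were tight and well apart, with a change of -0.66 (SE 0.04, adjusted p = 5.0e-07).

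GABRG3, a γ subunit, and GABRQ, the θ subunit, did not pass, at 1.57 ± 0.346 and 1.47 ± 0.215 FPKM and at 0.921 ± 0.102 and 0.875 ± 0.164. GABRA2, GABRA6, GABRD, GABRE, GABRG1 and GABRR3 were among the genes listed at 0 in all 8 libraries. GABRA4 was thus nearly the whole of the α subunit FPKM, 98.7% ± 0.384 untreated and 98.2% ± 0.464 with IFN-γ. Within libraries the GABRB1 to GABRA4 ratio was 0.242 ± 0.0304 untreated and 0.166 ± 0.0141 with IFN-γ, with no overlap between the groups.

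The 2 genes that fell are neighbours on chromosome 4, head to head. GABRA4 spans 46918900 to 46994407 on the reverse strand and GABRB1 46993723 to 47426444 on the forward strand, and GENCODE gives them 204 exonic bases in common on opposite strands. Fragments from there cannot be assigned without strand, so the 2 genes and their ratio may not be independent. The part of these fragments in the lower GABRB1 values was not tested. GABRG1 and GABRA2 of the same family were at 0. The RefSeq windows of both genes are shown because they fell together, that of GABRA4 at chr4:46993532-46993831 on the reverse strand and that of GABRB1 at chr4:47031317-47031616 on the forward strand, with the GAS match of GABRB1 in capitals:
GABRA4: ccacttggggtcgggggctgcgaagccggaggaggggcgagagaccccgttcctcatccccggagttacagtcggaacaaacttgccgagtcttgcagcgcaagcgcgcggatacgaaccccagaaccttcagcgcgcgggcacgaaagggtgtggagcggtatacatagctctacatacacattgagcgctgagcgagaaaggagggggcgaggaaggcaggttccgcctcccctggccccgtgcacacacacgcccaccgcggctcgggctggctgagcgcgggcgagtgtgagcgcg
GABRB1: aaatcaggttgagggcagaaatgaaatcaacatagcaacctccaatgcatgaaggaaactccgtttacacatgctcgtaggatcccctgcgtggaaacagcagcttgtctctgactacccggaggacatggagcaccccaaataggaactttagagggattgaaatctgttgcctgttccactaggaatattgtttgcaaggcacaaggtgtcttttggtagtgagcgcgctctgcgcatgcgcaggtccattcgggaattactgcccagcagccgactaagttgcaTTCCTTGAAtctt
The GABRA4 window is 66.0% G and C and holds neither match. The GABRB1 window is 48.7% G and C, and its match begins at base 288 of 300, after the RefSeq start used for the window. That start lies inside GABRB1, downstream of the GENCODE start at 46993723, so the window is not the head-to-head region beside GABRA4.

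**Figure D3:**
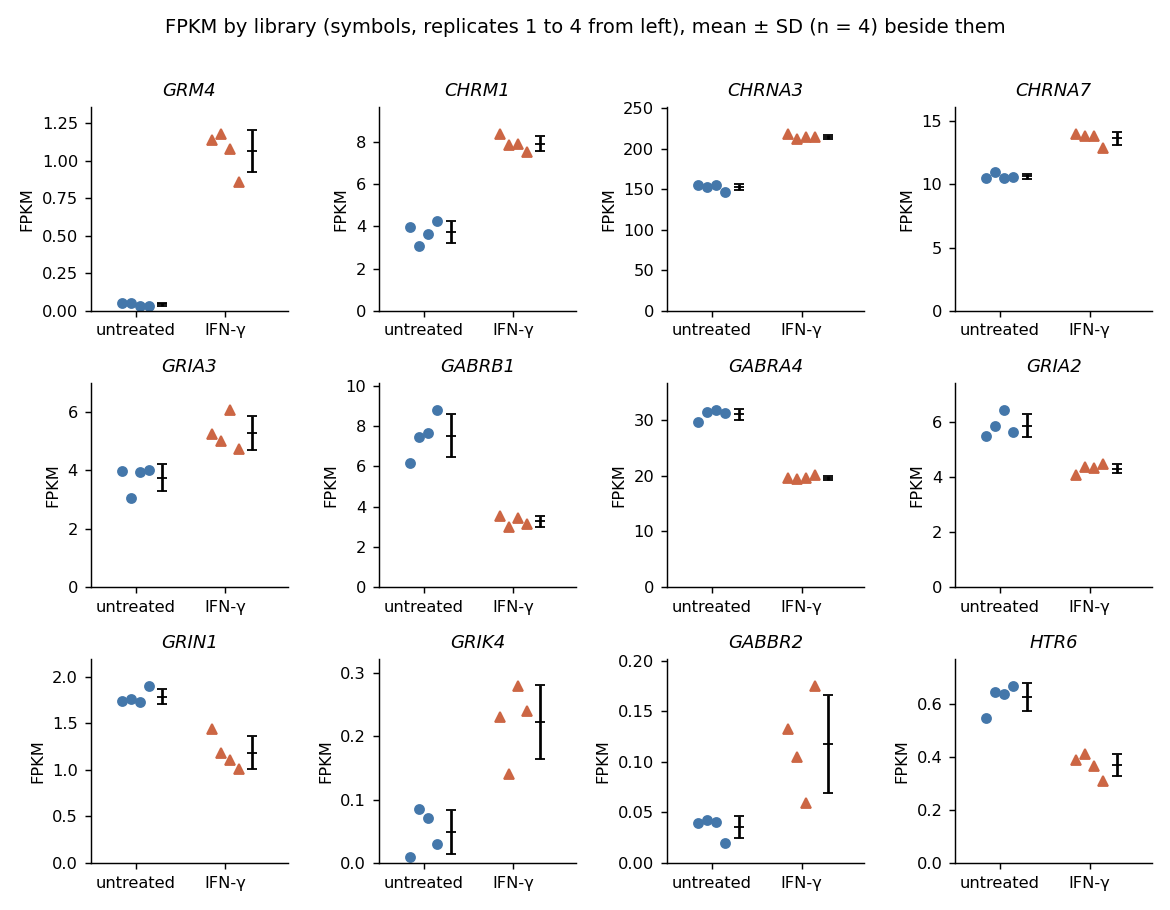
FPKM by library for 12 receptor genes, from 0 on a linear axis in each panel, with symbols for replicates 1 to 4 from left to right (circles untreated, triangles IFN-γ) and the mean ± SD (n = 4) beside them. Only genes whose groups do not overlap are shown. Such genes were 16 of the 27 tested members, beside 28.2% of all genes tested, and 4 of the 63 untested members. GRIK4, GABBR2 and HTR6 reach at most 0.667 FPKM and were not tested.

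The GABA-B receptor works as a dimer of GABBR1 and GABBR2. GABBR1 did not pass, at 3.14 ± 0.143 FPKM untreated and 3.27 ± 0.510 with IFN-γ (log2 change 0.05, SE 0.11, adjusted p = 0.806). GABBR2 lay far lower, at 0.0399, 0.0423, 0.0401 and 0.0198 FPKM untreated and 0.132, 0.104, 0.0590 and 0.175 with IFN-γ, and was not tested. The groups do not overlap, but by the longest transcript the values stand for about 1.85 to 4.65 and 5.66 to 20.3 fragments per library. The 5 glycine receptor genes were all under the FPKM minimum. GLRA1, GLRA3 and GLRB had means of 0.351, 0.242 and 0.252 FPKM untreated and 0.508, 0.391 and 0.136 with IFN-γ, with overlapping groups.

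Among AMPA receptors, the fast glutamate channels, GRIA3 rose, and GRIA2 and GRIA4 fell on the deposited scale. In TPM over all genes GRIA2 and GRIA4 had changes of 0.35 and 0.66, where the median of all genes was 0.79. GRIA4 was the main subunit, at 30.9, 31.4, 33.4 and 34.0 FPKM untreated and 29.2, 29.6, 27.8 and 30.5 with IFN-γ. Its treated values lay just below the untreated ones (-0.15, SE 0.05, adjusted p = 0.0448). That call was lost on leaving out any library but IFN-γ replicate 4 or untreated replicate 1 (adjusted p = 0.0663 to 0.125). GRIA2, whose edited subunit keeps calcium out of the channel, was at 5.50, 5.88, 6.46 and 5.65 FPKM untreated and 4.07, 4.36, 4.33 and 4.47 with IFN-γ, with no overlap (-0.44, SE 0.07, adjusted p = 0.00117). GRIA3 was at 3.98, 3.05, 3.94 and 4.00 FPKM untreated and 5.25, 5.02, 6.08 and 4.71 with IFN-γ, higher in every treated library (0.48, SE 0.11, adjusted p = 0.00988). It missed the threshold in TPM without short RNA genes (adjusted p = 0.0532). GRIA1 was at no more than 0.0215 FPKM.

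GRIA2 was more abundant than GRIA3 in all untreated libraries and less abundant in all treated ones. Their GRIA3 to GRIA2 ratio was 0.640 ± 0.0955 and 1.225 ± 0.154, and the GRIA2 share of AMPA FPKM was 14.0% ± 0.851 untreated and 11.1% ± 0.348 with IFN-γ. The GRIA2 to GRIA4 ratio was 0.181 ± 0.0119 and 0.147 ± 0.00666. The summed AMPA level was 42.0 ± 1.95 and 38.8 ± 0.665 FPKM. GRIA2 lies on chromosome 4 at 157204182 to 157366075, GRIA3 on chromosome X at 123184153 to 123490915 and GRIA4 on chromosome 11 at 105609994 to 105982092, all on the forward strand.

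None of the 3 tested kainate receptor genes passed. The other 2, GRIK1 and GRIK4, were under the FPKM minimum, and GRIK4 passed as higher in limma with no filter on low values (adjusted p = 0.00791). GRIK2, the GluK2 subunit, was the most abundant at 27.2 ± 0.936 FPKM untreated and 25.1 ± 0.967 with IFN-γ (log2 change -0.11, SE 0.04, adjusted p = 0.0844). GRIK3 was at 0.646, 0.751, 0.673 and 0.661 FPKM untreated and 0.575, 0.464, 0.509 and 0.428 with IFN-γ, lower in all 4 (-0.40, SE 0.17, adjusted p = 0.117). GRIK5 was at 1.04 ± 0.15 and 0.930 ± 0.207 FPKM (adjusted p = 0.561). GRIK2 passed as lower after quantile normalization (adjusted p = 0.0112) and in TPM without short RNA genes (0.0314), and as higher in TPM over all genes (0.0447). GRIK3 passed as lower after quantile normalization (adjusted p = 0.0405) and in limma without the trend (0.0104).

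Of the NMDA receptor genes, GRIN1, the subunit that every NMDA receptor needs, fell. It was at 1.74, 1.76, 1.73 and 1.90 FPKM untreated and 1.43, 1.19, 1.11 and 1.01 with IFN-γ, with no overlap (-0.56, SE 0.12, adjusted p = 0.00906). The GluN2 subunits that bind glutamate were scarce: GRIN2B was listed at 0 in all 8 libraries, GRIN2A was at no more than 0.0238 FPKM, and GRIN2D was at 0.170 ± 0.0523 and 0.0950 ± 0.0315. GRIN3A did not pass, at 0.541 ± 0.0825 and 0.526 ± 0.159 FPKM. GRID1, a delta receptor of synapse adhesion, did not pass either, at 0.638 ± 0.146 and 0.804 ± 0.230 FPKM (adjusted p = 0.467).

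The largest relative change among the tested members was that of GRM4, a metabotropic glutamate receptor coupled to Gi that damps transmitter release. It was at 0.0539, 0.0533, 0.0319 and 0.0351 FPKM untreated and at 1.14, 1.18, 1.08 and 0.861 with IFN-γ. Every treated library exceeded every untreated one many times over, and the log2 change was 3.02 (SE 0.22, adjusted p = 4.3e-06). The untreated values stand for only about 3.72 to 7.37 fragments per library and the treated ones for 120 to 152, so the size of the change is loosely known. It was 0.98 with a pseudocount of 1 and 4.34 with 0.01, and the ratio of means was 24.4. GRM4 lies on chromosome 6 at 34018645 to 34155622, reverse strand. The other 7 metabotropic genes were not tested: GRM2 and GRM6 had means of 0.158 and 0.355 FPKM untreated and 0.116 and 0.309 with IFN-γ, and GRM3, GRM5, GRM7 and GRM8 had means under 0.1 over all 8 libraries.

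**Figure D4:**
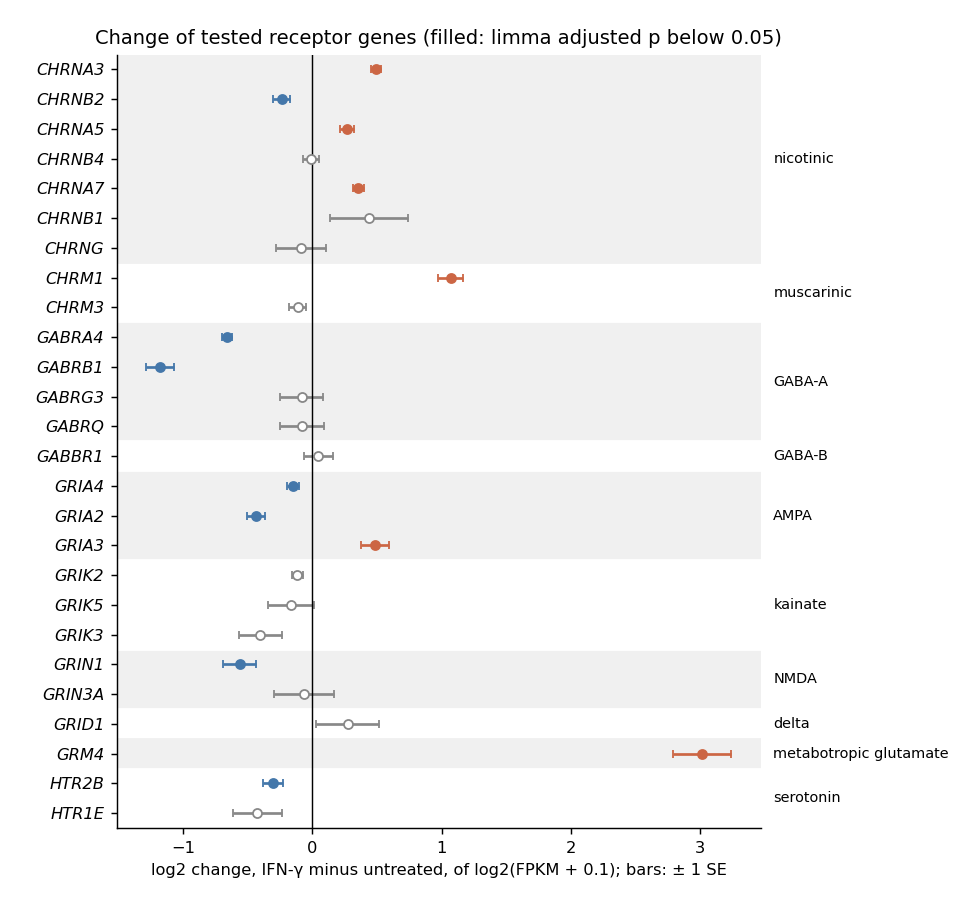
Log2 change (IFN-γ minus untreated, of log2(FPKM + 0.1), bars ± 1 SE) of 26 of the 27 tested receptor genes, ordered as in the plot of FPKM levels; filled points had a limma adjusted p below 0.05, orange higher and blue lower, and open grey points did not. The changes run from -1.18 for GABRB1 to 3.02 for GRM4.

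Of the serotonin receptor genes only HTR2B and HTR1E reached the FPKM minimum, and HTR2B fell. HTR2B, which is coupled to Gq, was at 8.50, 8.41, 7.62 and 7.20 FPKM untreated and 7.04, 6.34, 5.78 and 6.47 with IFN-γ. The groups come close but do not overlap (-0.30, SE 0.08, adjusted p = 0.0188), and 3 single libraries decided the call, since it missed the threshold when untreated replicate 1, untreated replicate 2 or IFN-γ replicate 3 was left out (adjusted p = 0.0611, 0.0613 and 0.0505). HTR2B lies on chromosome 2 at 231108230 to 231125118, and shares 559 exonic bases with PSMD1 on the other strand, which rose from 66.0 ± 1.98 to 73.3 ± 1.54 FPKM (adjusted p = 0.0132). HTR1E, coupled to Gi, did not pass, at 0.876 ± 0.134 and 0.630 ± 0.120 FPKM (adjusted p = 0.137). HTR1A, HTR1B, HTR3C, HTR3D and HTR5A were listed at 0 in all 8 libraries.

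Among the 63 untested genes the groups did not overlap in 4, GRIK4, GABBR2, HTR6 and CHRNA9. The 14 of the 63 at 0 in all libraries cannot separate. The share without overlap was counted only over tested genes, so whether 4 is many or few is not known. With no filter on low values, 15.0% of 20025 genes passed, and GRIK4, GABBR2 and HTR6 were the members that then passed in addition, while GRIA4 no longer did (adjusted p = 0.0550). GRIK4, a kainate subunit, was at 0.0101, 0.0854, 0.0710 and 0.0301 FPKM untreated and 0.230, 0.141, 0.280 and 0.239 with IFN-γ, about 0.963 to 9.52 and 11.6 to 28.1 fragments (log2 change 1.12, SE 0.22, adjusted p = 0.00791). HTR6, a serotonin receptor coupled to Gs, was at 0.546, 0.642, 0.638 and 0.667 FPKM untreated and 0.389, 0.410, 0.365 and 0.310 with IFN-γ, lower in all 4 (-0.63, SE 0.15, adjusted p = 0.0218). For GABBR2 the change was 0.66 (SE 0.18, adjusted p = 0.0422). CHRNA9 was at no more than 0.0927 FPKM and did not pass (adjusted p = 0.0863). CHRNA10, CHRND, GABRA5, GABRR2, GLRA2, GRIK1 and GRIN2C had means of 0.1 to 0.5 FPKM and reached at most 0.696 FPKM, in GABRR2. The rest of the untested genes above 0 overlapped between groups, and those with a mean under 0.1 reached at most 0.224 FPKM, in HTR3A. Besides those named, CHRNB3 was listed at 0 throughout.

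The enzymes, transporters and scaffolds around these receptors were taken from 9 lists, of which 54 genes were tested. Of the 54, 6 were higher and 10 lower, whereas over all genes tested 13.3% were higher and 9.05% lower. The median log2 change of the 54 was -0.05. The higher count was 3 when untreated replicate 1, untreated replicate 2 or IFN-γ replicate 1 was left out, and TPM without short RNA genes gave 3 higher and 15 lower. Of 5 tested genes of glutamate synthesis and transport 3 rose and none fell. Among them GLUL, which turns glutamate to glutamine, rose from 18.1 ± 0.323 to 21.7 ± 0.555 FPKM, and SLC1A3, a glutamate uptake carrier, from 2.52 ± 0.415 to 3.56 ± 0.567. Of 18 tested auxiliary subunits and scaffolds of glutamate receptors 7 fell and 1 rose. HOMER3, which binds metabotropic receptors, fell from 1.05 ± 0.119 to 0.555 ± 0.0670 FPKM and GRIP2, which binds AMPA subunits, from 1.21 ± 0.0854 to 0.778 ± 0.0506, while DLG2, a scaffold of NMDA receptors, rose from 0.619 ± 0.119 to 1.10 ± 0.160. The other 5 that fell, named after their values were seen, were CNIH2, DLG1, SHANK2, HOMER2 and CBLN1.

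The list of GABA synthesis and breakdown had 3 tested genes and 1 that fell, ALDH5A1, an enzyme of GABA breakdown, from 4.84 ± 0.233 to 3.77 ± 0.227 FPKM. GAD1 and GAD2, which make GABA and were looked up after the values were seen, were at no more than 0.0858 FPKM and at 0 in all libraries. None of 9 tested inhibitory scaffolds and GABA-B partners passed. GABARAP, the highest, was at 90.3 ± 6.30 and 96.4 ± 13.8 FPKM. The acetylcholine list had 2 tested genes. SLC18A3, the vesicular acetylcholine carrier, rose from 0.614 ± 0.0901 to 1.07 ± 0.278 FPKM (adjusted p = 0.0330), and CHAT, which makes acetylcholine and was looked up likewise, was at no more than 0.0897 FPKM in any library. BCHE, the higher of the tested genes, was at 8.68 ± 0.546 and 8.92 ± 1.22.

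Of 6 tested nicotinic receptor partners LRP4 fell, from 1.62 ± 0.0777 to 1.09 ± 0.144 FPKM, and RER1, the highest of the list, did not pass, at 12.2 ± 0.553 and 13.1 ± 0.384. MAOA, which breaks down serotonin, fell from 6.20 ± 0.321 to 4.87 ± 0.571 FPKM. DDC, an enzyme of its synthesis, did not pass at 238 ± 5.62 and 226 ± 12.6. TPH1 and TPH2, serotonin synthesis genes looked up after the values were seen, were at no more than 0.283 and 0.0262 FPKM in any library. MAOB, named after its values were seen and too low to test, was listed at 0 in every untreated library, and with IFN-γ it was at 0.146, 0.275, 0.140 and 0.434 FPKM. Of 7 tested G protein subunits GNAQ, the α subunit of Gq, rose from 32.4 ± 0.814 to 35.5 ± 0.960 FPKM, and GNAS, the α subunit of Gs and the highest, did not pass at 760 ± 14.1 and 775 ± 43.3. Neither tested gene of glycine transport passed; GCSH was at 17.0 ± 0.817 and 17.1 ± 2.65.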

How the data were processed

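RNA of 8 BE(2)-M17 libraries was analysed, grouped by the treatment in the labels. The deposited values are FPKM per gene, which the authors made with TopHat2, Cuffdiff and hg38, per the submitters' processing notes, without versions. Which annotation they used, and any scaling between libraries, is not given in the sources used here. The kit named in the labels' protocols does not mark strand.

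From the FPKM values, log2(FPKM + 0.1) was fitted by limma 3.58.1 in R 4.3.3 with a mean-variance trend, two-sided, over the 13598 genes whose mean reached 0.5 FPKM, with Benjamini-Hochberg adjustment and a threshold of 0.05. Class sums, shares and ratios were computed within libraries. The step of 1 fragment per kilobase, 0.05 to 0.0713 FPKM, sets the precision of low values. Positions came from GENCODE release 29 (GRCh38). The fit was tested on simulated data with 200 changed genes, where 12 of 172 calls (6.98%) were false, above the threshold of 0.05. It recovered 44% of genes changed 1.25-fold, 86% at 1.5-fold, 90% at 2-fold and 100% at 4-fold. Changes near 1.25-fold were thus often missed in the simulation. Only 200 of 13598 genes were changed there, whereas 22.3% of the genes tested were called in these data. The adjustment was therefore stricter in the simulation, and its recovery need not hold for these data.

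Named are all tested receptor genes, untested ones with a mean of at least 0.1 FPKM or at 0 in all libraries, up to 3 called genes of each list with the largest change, the highest gene of any list having under 2 called, and GAPDH; others are marked where they appear or were added for their low level or overlap. Some genes that this rule names are not reported here. The members and lists were chosen with earlier results of these data known. Alternatives were other pseudocounts, filters, scalings and limma settings, the replicate number as a block, and each library left out.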

Additional observations from a re-analysis of the deposited data

Results flagged for a closer look

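In 2 of 54 groups of 4 libraries 1 value lay far from the rest, where chance alone gives this in about 5% of groups. GRIA3 was at 3.05 FPKM in untreated replicate 2, while the other untreated libraries were at 3.94 to 4.00, a gap of 0.933 of the group's range. GRIN3A was at 0.664 FPKM in untreated replicate 4, while the other untreated libraries were at 0.492 to 0.506, a gap of 0.914 of the range.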

How the results depend on the processing

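The count of 6 higher and 7 lower receptor genes kept within 1.5 times under both other pseudocounts, both other filters, median-of-ratios scaling, quantile normalization (6 and 10), TPM without short RNA genes, robust limma, limma without the trend, and the replicate block. It did not in TPM over all genes, with 12 higher and 0 lower, and 36 higher and 0 lower genes in the pathway lists. Higher pathway genes numbered 3 in TPM without short RNA genes and 3 with the replicate block. Leaving out 1 library gave 6 higher and 4 to 8 lower receptor genes, and 3 to 7 higher and 8 to 13 lower pathway genes. In TPM over all genes the sign turned for CHRM3 (0.68), CHRNB2 (0.57), CHRNB4 (0.79), CHRNG (0.61), GABRA4 (0.14), GABRG3 (0.68), GABRQ (0.65), GRIA2 (0.35), GRIA4 (0.66), GRIK2 (0.69), GRIK3 (0.29), GRIK5 (0.57), GRIN1 (0.19), GRIN3A (0.62), HTR1E (0.29) and HTR2B (0.49), where the median of all genes was 0.79. Other signs turned only in genes that were not called. GABBR1 was at -0.042 in TPM without short RNA genes. Over the fits that left out 1 library the change ran from -0.050 to 0.046 for CHRNB4, -0.20 to 0.030 for CHRNG, -0.0062 to 0.16 for GABBR1, -0.18 to 0.033 for GABRG3, -0.16 to 0.037 for GABRQ and -0.17 to 0.11 for GRIN3A. Apart from the shift of the median in TPM, the cause was not tested. The replicate block gave 6 higher and 6 lower receptor genes, without GRIA4 (adjusted p = 0.0693). Same-numbered libraries correlated in their deviations by -0.0275 to 0.079 and others by -0.0935 to 0.0862, and 3 of 4 IFN-γ libraries correlated best with their own number. Genes at a few fragments per library, GRM4 untreated, GRIK4 and GABBR2, are limited by depth.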
